A study of Mus musculus with 24 samples.

Results

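*Znrf3* and 8 further genes of the Wnt pathway (*Axin2*, *Lrp5*, *Lrp6*, *Ctnnb1*, *Apc*, *Gsk3b*, *Tcf7l2* and *Fzd3*) were followed in the medial prefrontal cortex (mPFC) of 24 mice. They were taken by gene symbol from a table of 15456 genes, and all 9 symbols were present. *Znrf3* was chosen by its normalized counts in these same data, as 1 of the 4 genes called between *R. flavefaciens* and control mice, and the other members were added as genes of its pathway. The values of *Znrf3* in that comparison, and in others that share those mice, are therefore given as descriptions without a p-value. Where a fit called *Znrf3* there, the call enters the counts only, and nothing is read from it.

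The mice were male BALB/c animals (BALB/c OlaHsd in the methods), labelled as aged 11 postnatal weeks, with 6 mice and 1 RNA library per mouse in each of 4 groups. The control group carried the label of no treatment and, per the methods, received PBS. The duloxetine group received daily intraperitoneal injections of duloxetine, an antidepressant of the class that inhibits serotonin and noradrenaline reuptake. The *R. flavefaciens* group received live *Ruminococcus flavefaciens*, an anaerobic gut bacterium, by gavage, and the last group received both treatments. All mice were of a single strain and sex, and the tissue was a punch of cortex that holds many cell types. Fewer cells of a type and less RNA per cell therefore cannot be told apart in these values. Expression was measured as normalized counts, that is, reads per gene divided by 1 size factor per mouse. Between 12811413 and 15607343 reads on genes stood behind each mouse.

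Wnt ligands bind Frizzled receptors together with the co-receptors LRP5 and LRP6. Without a ligand, a cytoplasmic destruction complex built on Axin and APC lets the kinase GSK3 mark beta-catenin for degradation. With a ligand the complex is held back, and beta-catenin enters the nucleus and activates target genes with TCF/LEF factors. ZNRF3 is a membrane ubiquitin ligase that removes Frizzled and LRP6 from the cell surface, and R-spondins acting through LGR receptors remove ZNRF3 in turn. *Znrf3* and *Axin2* are both negative feedback regulators that are themselves induced by the pathway. In the adult cortex, Wnt signaling is known for roles at synapses and in blood vessels.

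All 9 genes were annotated as protein coding, and positions on GRCm38 are those in the deposited table. That of *Apc* is not reported here, and that of *Tcf7l2* differs from GENCODE vM21. *Znrf3* (ENSMUSG00000041961.14) spans bases 5276324 to 5444847 of chromosome 11, on the minus strand. *Axin2* lies on the plus strand of the same chromosome, from 108920349 to 108950783. *Lrp5* (3584828 to 3686564, minus strand) and *Tcf7l2* (55741810 to 55933654, plus strand) lie on chromosome 19. *Lrp6* lies on chromosome 6 (134446476 to 134566965, minus strand), *Ctnnb1* on chromosome 9 (120929216 to 120960507, plus strand), *Gsk3b* on chromosome 16 (38089001 to 38246084, plus strand) and *Fzd3* on chromosome 14 (65192449 to 65262463, minus strand). Exons of *Axin2* overlap the antisense gene *Gm11670*, and exons of *Ctnnb1* overlap *Ulk4* on the opposite strand. The strand setting of the counting is not given in the sources used here, so reads from these overlaps may be shared.

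Promoter sequence bears on these genes because TCF/LEF factors act at target promoters. The 250 bases before the annotated start are shown, from RefSeq on GRCm38.p6, for *Axin2*, the feedback gene most often used as a readout of the pathway, and for *Gsk3b*, the kinase gene of the destruction complex. Capitals mark the letters CTTTGA, a core of the TCF/LEF motif, searched on both strands (its reverse complement is TCAAAG). The *Axin2* window is chr11:108920099-108920348 and the *Gsk3b* window is chr16:38088751-38089000, both on the plus strand.
Axin2: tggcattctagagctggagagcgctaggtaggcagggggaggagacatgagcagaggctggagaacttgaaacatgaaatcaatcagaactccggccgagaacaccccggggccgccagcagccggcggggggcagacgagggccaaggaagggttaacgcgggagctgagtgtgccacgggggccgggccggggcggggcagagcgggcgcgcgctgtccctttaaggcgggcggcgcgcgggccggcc
Gsk3b: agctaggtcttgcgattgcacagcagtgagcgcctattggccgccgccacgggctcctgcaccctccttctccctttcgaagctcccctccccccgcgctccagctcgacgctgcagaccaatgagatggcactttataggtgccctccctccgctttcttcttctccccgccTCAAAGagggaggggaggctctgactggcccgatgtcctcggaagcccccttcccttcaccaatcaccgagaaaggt

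The *Gsk3b* window held 1 match, which began 77 bases before the start, and the *Axin2* window held 0. Of 32851 such windows, 13.8% held these letters. A match describes the letters alone, and 0 matches says only that they are not in this window. Windows were at hand for 4 of the 9 genes.

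Levels per kilobase of the longest transcript ordered the genes as follows, over all 24 mice. *Ctnnb1*, which encodes beta-catenin, had the highest level, with 1382 ± 66.8 normalized counts per kilobase (SD, n = 24). *Gsk3b* (566 ± 49.5) and *Apc* (558 ± 66.3), the kinase and the scaffold of the destruction complex, followed and did not differ beyond their spread. The Frizzled receptor gene *Fzd3* had 200.2 ± 24.9. The co-receptor *Lrp6* (87.3 ± 7.52) and *Axin2* (82.6 ± 6.86) were again within their spread of each other. *Znrf3* had 43.2 ± 4.28, *Lrp5* had 21.6 ± 1.69, and *Tcf7l2*, a TCF/LEF factor gene with high levels in the thalamus and in the oligodendrocyte lineage, had the lowest level with 15.5 ± 3.82.

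*Znrf3* was low in the mice that received *R. flavefaciens* alone and near the control level in the mice that received both treatments. In control mice it ranged from 278 to 306 normalized counts with a median of 291. In duloxetine mice it ranged from 250.3 to 296 with a median of 279.7. In *R. flavefaciens* mice it ranged from 221 to 264 with a median of 228. In mice with both treatments it ranged from 262 to 304 with a median of 291. Of the 6 *R. flavefaciens* mice, 5 lay below every one of the other 18 mice. The remaining mouse, 8_4, lay below every control mouse but above a duloxetine mouse and a mouse with both treatments.

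**Figure D1:**
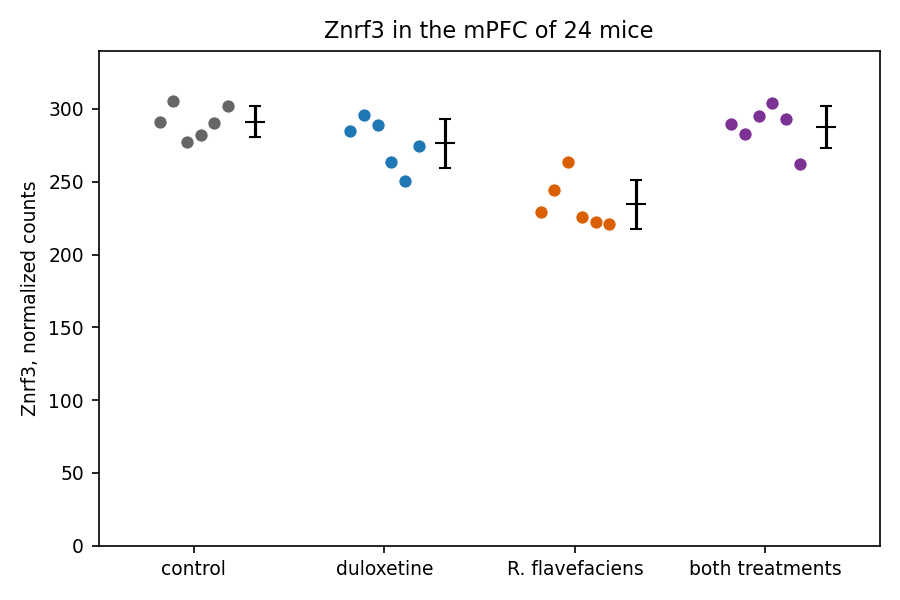
*Znrf3* in normalized counts (y axis, from 0) in each mouse of the 4 groups (x axis). Points are mice, and the bars beside them give the mean and SD of 6 mice. The *R. flavefaciens* mice sit between 221 and 264, all below the control mice, which start at 278.

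As group means, *Znrf3* had 291 ± 11.0 normalized counts in control, 276 ± 17.0 in duloxetine, 234 ± 16.6 in *R. flavefaciens* and 288 ± 14.4 in both treatments (SD, n = 6 mice each). The *R. flavefaciens* and control groups did not overlap, which held for 0.835% of all tested genes in this direction. This is the comparison that chose the gene (0.0267% of genes called), so nothing was read from it. Its log2 fold change was -0.31 (95% interval -0.43 to -0.20), on the scale of log2(value + 1), a difference of -19.6%. Between both treatments and control the log2 fold change was -0.02 (95% interval -0.14 to 0.10).

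The effect of *R. flavefaciens* in mice that also received duloxetine was tested in 12 mice whose values do not enter the difference that chose *Znrf3*. The choice was still not free of them, since the limma estimate of spread drew on all 24 mice, in the choice as in this test. A limma fit of the *R. flavefaciens* and control mice alone called 0 genes. Adding the bacterium to duloxetine gave a log2 fold change of *Znrf3* of 0.06 (95% interval -0.06 to 0.17) and did not pass the threshold (limma, adjusted p = 0.867). The mice with both treatments overlapped with the duloxetine mice. The interaction of the treatments holds the comparison that chose the gene and is given as a description without a test. It was 0.37 (95% interval 0.21 to 0.54). The choice of the gene favours a large difference there, so nothing is read from the distance of this interval from 0.

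No member passed the threshold when *R. flavefaciens* was added to duloxetine. With limma, 0 of 9 members and 0% of all 14974 tested genes had an adjusted p-value under 0.05, and 883 genes (5.9%) and 0 of the 9 members had an unadjusted p-value under 0.05. DESeq2 on the recovered reads called 1 gene, which was no member, and edgeR called 0. *Ctnnb1* stood closest to the threshold, with 5043 ± 69.6 normalized counts under duloxetine and 4809 ± 175 under both treatments (SD, n = 6 each), or -0.07 on the log2 scale (limma, adjusted p = 0.818). The other members had log2 fold changes between -0.08 (*Fzd3*) and 0.08 (*Apc*). The widest 95% interval belonged to *Tcf7l2*, the gene with the fewest counts, and ran from -0.31 to 0.43.

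**Figure D2:**
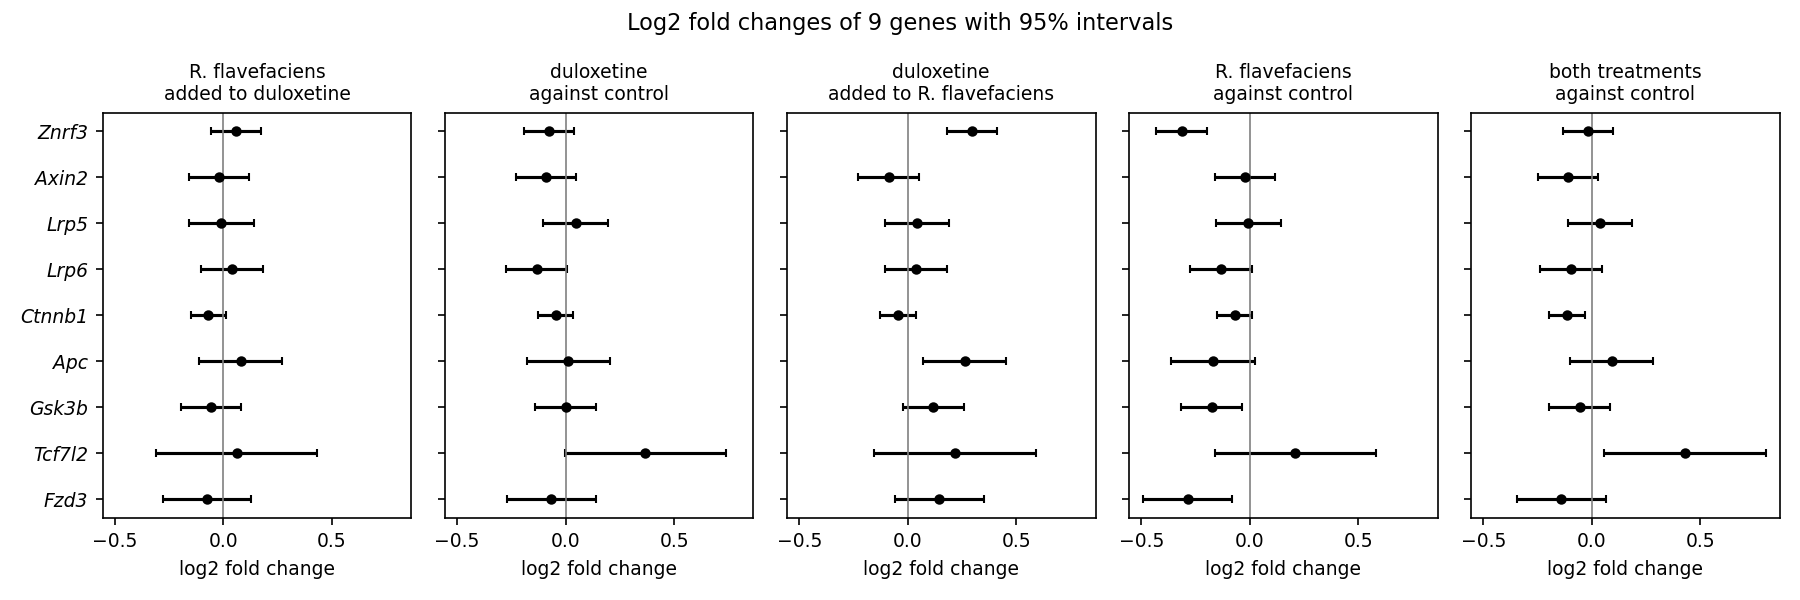
Log2 fold changes (x axis, log2(value + 1) scale) of the 9 genes (y axis) in 5 comparisons, with points for the limma estimate and bars for the 95% interval, n = 6 mice per group. In the first panel, with *R. flavefaciens* added to duloxetine, all 9 intervals include 0. The *Znrf3* interval lies from -0.43 to -0.20 in the *R. flavefaciens* against control panel, which chose the gene.

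Duloxetine alone called 0 of 9 members, and 0% of all genes, against control (limma). Over all genes, 573 had an unadjusted p-value under 0.05, and 0 of the 9 members did. DESeq2 called 1 gene and edgeR 0, and neither called a member. This comparison shares its control mice with the one that chose *Znrf3*. The log2 fold change of *Znrf3* was -0.08 (95% interval -0.19 to 0.04). *Lrp6* had -0.13 (-0.28 to 0.01), and the interval was -0.25 to -0.02 when mouse 9_3, of another group, was left out of the shared spread. Of the rest, *Tcf7l2* had the highest value, 0.37, with the widest interval (-0.004 to 0.74).

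With duloxetine added to *R. flavefaciens*, limma called 1 of the 9 members, *Znrf3*, where 2.23% of all genes were called (334 genes). The comparison shares the 6 *R. flavefaciens* mice with the one that chose *Znrf3*, and nothing is read from the call. The log2 fold change of *Znrf3* was 0.30 (95% interval 0.18 to 0.41), and *Apc* had 0.26 (0.07 to 0.45) without passing the threshold, and 0.15 (0.01 to 0.29) without mouse 9_3. The mice with both treatments (from 262) and the *R. flavefaciens* mice (to 264) overlapped by their end values. In a limma fit of these 12 mice alone, 0 genes were called and 1998 had an unadjusted p-value under 0.05, while DESeq2 and edgeR on all 24 mice called 610.0 and 327 genes, *Znrf3* among them. Both treatments against control gave 0 calls among the 9 members, with limma, DESeq2 and edgeR alike, where limma called 0.1% of all genes.

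Several members varied more among the *R. flavefaciens* mice than in the other groups. *Fzd3* had a coefficient of variation of 21.1% there and between 5.01% and 8.53% in the other groups. *Apc* had 19.9% there and between 5.19% and 9.13% elsewhere, and *Gsk3b* had 15.2% there and between 2.45% and 4.89% elsewhere. Mouse 9_3 of that group stood apart. It had the lowest value of all 24 mice for 5 of the 9 genes (*Znrf3*, *Lrp6*, *Apc*, *Gsk3b* and *Fzd3*), and no other mouse was lowest for more than 1. Without it, the coefficient of variation in its group was 11.2% for *Fzd3*, 12.4% for *Apc* and 12.4% for *Gsk3b*, still above that of each other group. Of the 6 *R. flavefaciens* mice, 3 lay below all 18 other mice for *Apc* and for *Gsk3b*, and 2 for *Fzd3*. The number was 1 for *Lrp6* and for *Tcf7l2*, and 0 for *Axin2*, *Lrp5* and *Ctnnb1*, beside 5 for *Znrf3*.

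Among the receptor genes, *Fzd3*, a Frizzled receptor known for axon guidance, had 1451 normalized counts in mouse 9_3 and between 2111 and 2746 in the other 5 *R. flavefaciens* mice. Control mice ranged from 2525 to 3021 (median 2780), duloxetine mice from 2434 to 2823 (median 2658) and mice with both treatments from 2115 to 2718 (median 2526). All groups overlapped. The log2 fold change of *Fzd3* between *R. flavefaciens* and control was -0.29 (95% interval -0.49 to -0.08), and without mouse 9_3 it was -0.16 (-0.295 to -0.025). Neither limma fit called *Fzd3*. In the fit of all mice, 19.6% of all genes had an unadjusted p-value under 0.05 in this comparison. *Lrp6*, the co-receptor, had 619 normalized counts in mouse 9_3 and between 747 and 923 in the rest of its group. Control mice ranged from 823 to 941 and overlapped with it, with a log2 fold change of -0.13 with that mouse and -0.06 without it. *Lrp5*, its homologue, had overlapping values in all groups, with means from 189 ± 13.2 (*R. flavefaciens*) to 197 ± 20.6 (duloxetine, SD, n = 6 each).

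The genes of the destruction complex split in the same way. *Apc* had 4370.4 normalized counts in mouse 9_3 and between 5802 and 7835 in the others of its group. Control mice ranged from 6775 to 7579, inside the latter span, and the log2 fold change against control was -0.17 with that mouse and -0.06 without it. *Gsk3b* had 3472 counts there and between 3736 and 4985 in the others, with log2 fold changes of -0.18 and -0.11. Control mice ranged from 4709 to 5019, and the groups overlapped. *Axin2* did not follow. Mouse 9_3 had 366 counts of *Axin2*, inside the range of the control mice (332 to 420.0, median 363). The medians of *Axin2* were 338 in duloxetine, 350.5 in *R. flavefaciens* and 337 in both treatments, and all groups overlapped. *Znrf3* lay at 221 in mouse 9_3, next to 223 in mouse 9_2, and its log2 fold change against control was -0.30 (-0.42 to -0.18) without mouse 9_3.

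**Figure D3:**
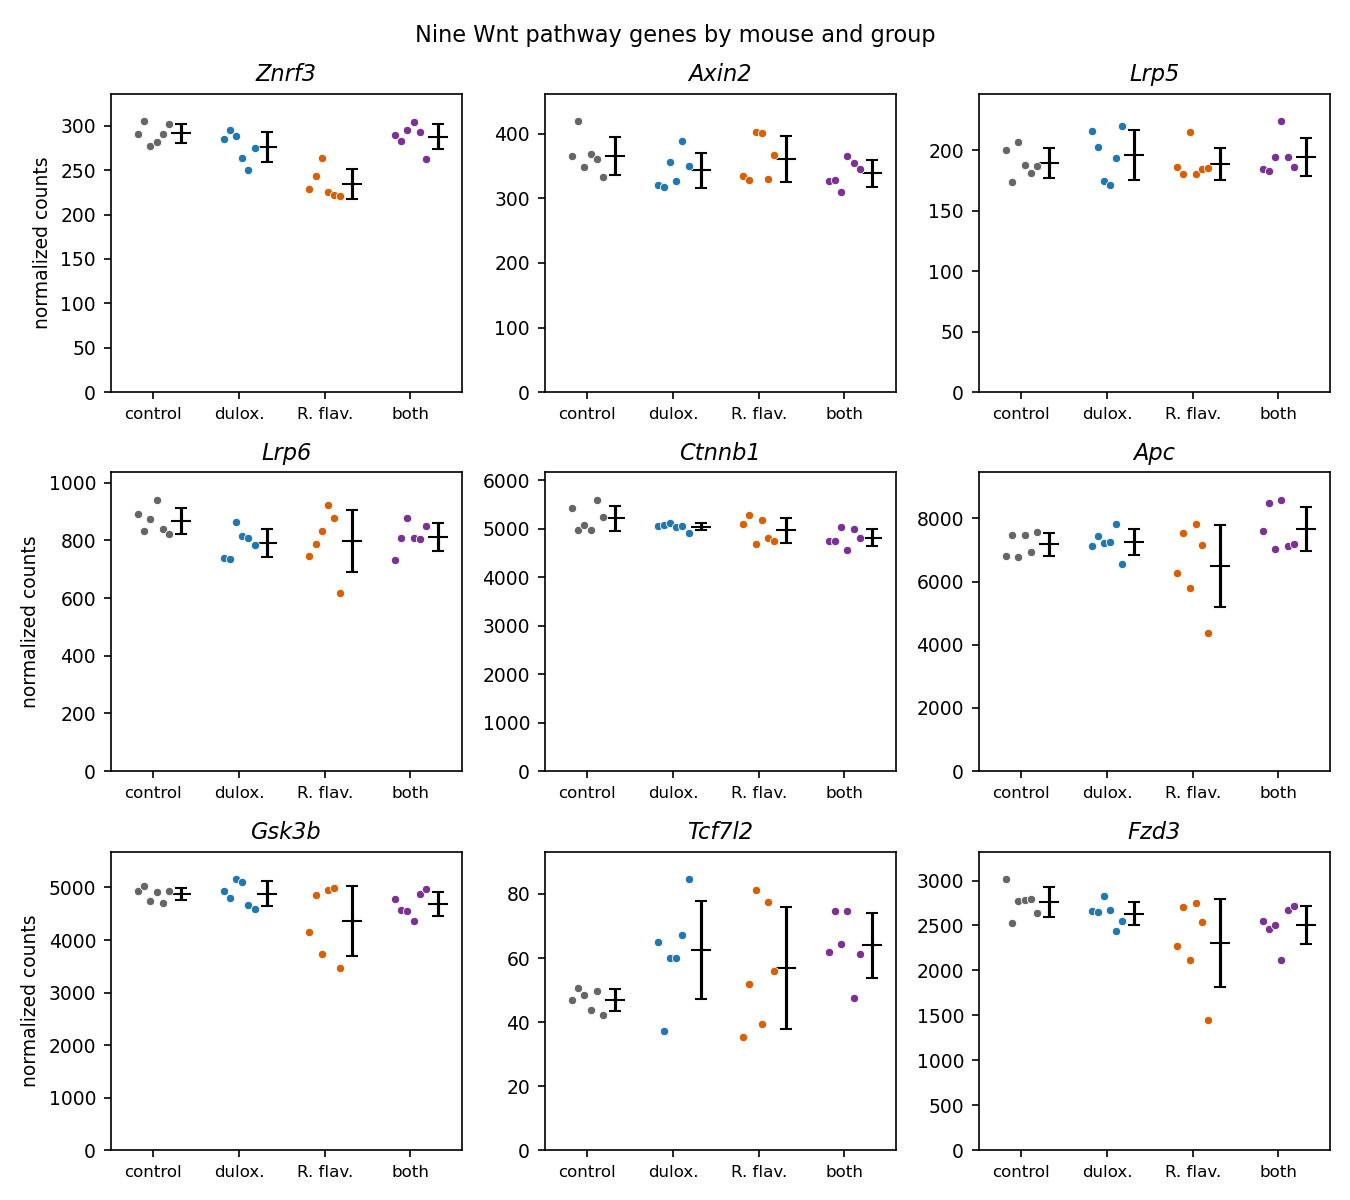
Normalized counts (y axes, each from 0) of the 9 genes in each mouse of the 4 groups (x axes; dulox., duloxetine; R. flav., *R. flavefaciens*; both, both treatments). Points are mice, and bars give the mean and SD of 6 mice. In the *R. flavefaciens* group, *Fzd3*, *Apc*, *Gsk3b* and *Lrp6* spread widely, with mouse 9_3 the lowest, while *Axin2* and *Lrp5* do not. For *Apc* and *Gsk3b*, 3 mice of that group lie below all 18 other mice, and for *Fzd3* 2 do.

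Of the nuclear members, *Ctnnb1* ranged from 4963 to 5599 normalized counts in control (median 5162) and from 4559 to 5033 in both treatments (median 4770.0), and the groups overlapped. Its log2 fold change in that comparison was -0.12 (95% interval -0.20 to -0.03), given as a description. *Tcf7l2* ranged from 42.1 to 50.6 in control, from 37.2 to 84.8 in duloxetine, from 35.5 to 81.2 in *R. flavefaciens* and from 47.4 to 74.8 in both treatments. The control mice lay close together, and each treated group spread wider. The log2 fold change between both treatments and control was 0.43 (95% interval 0.06 to 0.80). Markers of oligodendrocytes, which also express *Tcf7l2*, varied widely between mice. The summed level of 8 of 8 such markers ran from 11880 to 53080 normalized counts over the mice, with *Mbp* as the most abundant. By group it ran from 14390 to 39010 in control, from 15500 to 46750 in duloxetine, from 12520 to 46880 in *R. flavefaciens* and from 11880 to 53080 in both treatments. Its part in the *Tcf7l2* values was not tested.

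Long transcripts were lower in each treated group than in control, most in the *R. flavefaciens* mice, across the whole table, and 6 of the 9 members have long transcripts. Over 14958 genes, the log2 fold change against control was the lower the longer the longest transcript (Spearman rho = -0.47, across genes, which are not independent replicates). The rho was -0.18 for duloxetine and -0.24 for both treatments against control, -0.16 with *R. flavefaciens* added to duloxetine and 0.26 with duloxetine added to *R. flavefaciens*. With GC content it was 0.22 for *R. flavefaciens* against control, -0.24 with duloxetine added to *R. flavefaciens* and between -0.05 and 0.03 in the other comparisons. Per mouse, the rho between length and the deviation from the mean of all mice was -0.56 in mouse 9_3, -0.32 in 7_2 and -0.23 in 8_4, and between 0.04 and 0.11 in the other *R. flavefaciens* mice. Control mice lay between 0.095 and 0.244. *Apc* (12811 bases) and *Fzd3* (12734 bases) are longer than 99.0% of genes, and *Lrp6* (9368 bases) than 96.6%. *Lrp5* (8893 bases) is longer than 95.9%, *Gsk3b* (8303 bases) than 94.7% and *Znrf3* (6311 bases) than 87.2%. *Axin2* (4260 bases) is longer than 66.5%, and *Tcf7l2* (3715 bases) and *Ctnnb1* (3623 bases) are near the median of 3389 bases.

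When a smooth trend on length was taken out of each mouse, the members parted. The log2 fold change between *R. flavefaciens* and control was then -0.09 for *Fzd3*, -0.05 for *Gsk3b*, 0.02 for *Apc*, 0.02 for *Lrp6* and 0.13 for *Lrp5*, which had been at -0.01, and was -0.23 (standard error 0.059) for *Znrf3*. Under this setting *Znrf3* was no longer called. These are values of the comparison that chose *Znrf3*, and the part of transcript length in them was not tested.

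**Figure D4:**
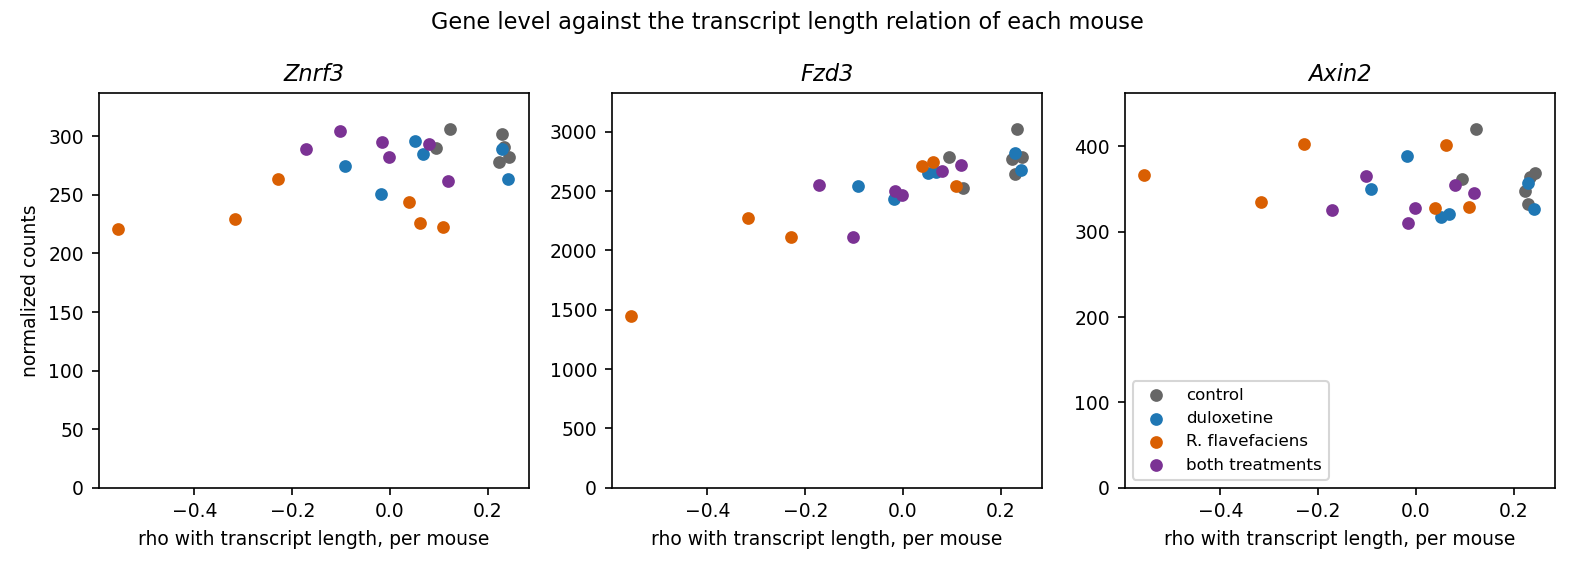
Normalized counts of *Znrf3*, *Fzd3* and *Axin2* (y axes, each from 0) against the Spearman rho between transcript length and log2 deviation in each mouse (x axis, no unit), with 1 point per mouse and colours for the 4 groups. Mouse 9_3 lies at the left end of each panel, at a rho of -0.56, with *Znrf3* at 221, *Fzd3* at 1451 and *Axin2* at 366.

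After the group means were taken off, the log2 values of *Gsk3b* and *Fzd3* had a Pearson r of 0.86 over 24 mice. *Apc* had 0.71 with *Gsk3b* and *Lrp6* had 0.695 with *Fzd3*. Without mouse 9_3 these 3 values were 0.79, 0.48 and 0.32, so that of *Lrp6* and *Fzd3* rested largely on that mouse. *Ctnnb1* and *Tcf7l2* had -0.49, and -0.50 without it. All points of a pair share libraries. The r of *Znrf3* was 0.32 with *Lrp5*, with and without mouse 9_3, and 0.02 and 0.03 with *Axin2*. With the members that were lowest in that mouse it was lower without it. It went from 0.08 to -0.16 with *Apc*, from 0.01 to -0.34 with *Fzd3*, from -0.13 to -0.37 with *Gsk3b* and from -0.06 to -0.34 with *Lrp6*. Of all tested genes, the highest r with *Znrf3* belonged to *Dchs1* (0.75), a large cadherin that is a ligand of the Fat receptor, *Mamdc2* (0.74), *Plxnb2* (0.74), a semaphorin receptor, *Wiz* (0.71), a zinc finger partner of histone methyltransferases, and *Prkch* (0.69), a protein kinase C. The lowest belonged to *Dffa* (-0.79), the inhibitor of an apoptotic nuclease, *Ube2w* (-0.75) and *Uba3* (-0.75), both of ubiquitin-like conjugation, *Zfp626* (-0.74) and *Ddx10* (-0.74). These are the extremes of 14974 genes and are given as a description.

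The rest of the pathway was read from lists by role with 152 genes, of which 137 were in the table and 133 were tested, 124 of them besides the 9 members. The members are counted in the lists by role that follow. When *R. flavefaciens* was added to duloxetine, 0 of the 124 passed the threshold (limma), and 10 had an unadjusted p-value under 0.05 (4 higher, 6 lower), where 5.9% of all genes did. Their median log2 fold change was -0.006, beside -0.003 over all genes. Their median log2 fold change for *R. flavefaciens* against control was -0.014, beside 0.003 over all genes. That comparison gave 0 calls among the 124, and 21 had an unadjusted p-value under 0.05 (5 higher, 16 lower), where 19.6% of all genes did. Duloxetine against control gave 0 calls and 5 at an unadjusted p-value under 0.05, and both treatments against control gave 0 calls and 19, where 3.83% and 16.8% of all genes did. Duloxetine added to *R. flavefaciens* gave 1 call, described with the nuclear genes, and 22 at an unadjusted p-value under 0.05, where 19.7% of all genes did.

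**Figure D5:**
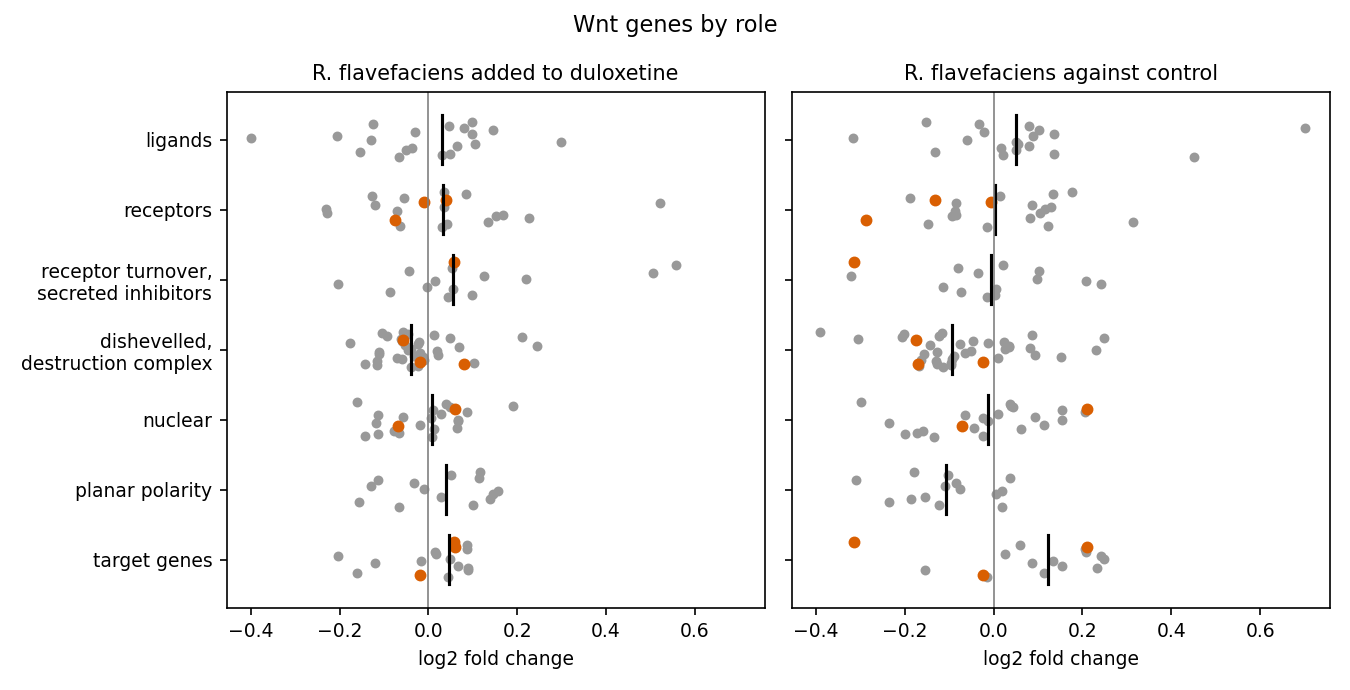
Log2 fold changes (x axes) of tested Wnt genes by role (y axis), for *R. flavefaciens* added to duloxetine and for *R. flavefaciens* against control. Each point is a gene, orange points are the 9 members, genes of 2 roles appear in both, and vertical lines are list medians. *Znrf3* lies at 0.06 on the left and at -0.31 on the right, while the target genes have a median of 0.05 and 0.12. Dishevelled and destruction complex genes have a median of -0.04 and -0.09, and planar polarity genes of 0.04 and -0.11. Medians of the remaining lists lie between -0.01 and 0.05 on the right.

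Among ligands and their helpers, 0 of 19 tested genes passed the threshold when *R. flavefaciens* was added to duloxetine. Closest to the threshold were *Wnt2b*, with a log2 fold change of -0.40 (adjusted p = 0.816), and the R-spondin gene *Rspo2*, with -0.15 (limma, adjusted p = 0.818). *Wnt7b*, a ligand of blood vessel and dendrite growth, had the highest level per kilobase (315 normalized counts), followed by *Porcn*, the enzyme that attaches a lipid to Wnt proteins (265).

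Among receptors, 0 of 20 passed. *Lgr6*, a receptor of R-spondins, had 54.0 ± 15.1 normalized counts under duloxetine and 76.0 ± 9.36 under both treatments (SD, n = 6 each), or 0.52 on the log2 scale (limma, adjusted p = 0.816). The mice with both treatments ranged from 65.3 to 88.1 and overlapped with the duloxetine mice, which reached 79.4. *Fzd4*, the receptor of norrin in vessels, had 0.23 (adjusted p = 0.818). *Ryk*, a Wnt receptor of the tyrosine kinase type, and *Lgr4* had the highest levels per kilobase besides the members, with 116 and 74.8.

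Among genes of receptor turnover and secreted inhibitors, 0 of 14 passed. *Sfrp1*, a decoy that binds Wnt proteins, had a log2 fold change of 0.22 (adjusted p = 0.816), and *Wif1*, another secreted inhibitor, had 0.56 at 13.8 and 21.4 normalized counts in the 2 groups (limma, adjusted p = 0.818). *Dkk3* had by far the highest level per kilobase of this list, with 3044, and *Frzb* followed with 158. *Rnf43*, the closest relative of *Znrf3* and chosen for naming after its values were seen, had 32.9 ± 8.26 normalized counts in control, 37.8 ± 8.83 in duloxetine, 38.6 ± 11.2 in *R. flavefaciens* and 38.1 ± 8.18 in both treatments (SD, n = 6 each). All of its groups overlapped, and its median in the *R. flavefaciens* mice (38.1) lay above that in the control mice (31.4).

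Among dishevelled and destruction complex genes, 0 of 37 passed. *Apc2*, a neuronal homologue of *Apc*, had a log2 fold change of -0.14 (adjusted p = 0.816), and *Dvl2*, which relays the signal from Frizzled, had 0.24 (adjusted p = 0.816). *Skp1a*, a part of the ubiquitin ligase that receives phosphorylated beta-catenin, and *Dact3*, a binder of dishevelled, had the highest levels per kilobase besides the members, with 2222 and 1147.

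Among nuclear genes, 0 of 23 passed when *R. flavefaciens* was added to duloxetine. *Smarca4*, an ATPase of chromatin remodelling, had a log2 fold change of -0.11 (adjusted p = 0.816), and *Bcl9l*, a co-activator of beta-catenin, had -0.14 (adjusted p = 0.818). *Ctbp1*, a co-repressor, had the highest level per kilobase besides *Ctnnb1*, with 848, and *Smarca4* followed with 444. In all comparisons, 1 gene of the 124 passed the threshold, in a comparison where 2.23% of all genes did, so that this count is not above the background. *Pygo2*, a nuclear partner of beta-catenin that binds methylated histone H3, fell when duloxetine was added to *R. flavefaciens*. It had 865 ± 46.5 normalized counts under *R. flavefaciens* and 764 ± 49.8 under both treatments (SD, n = 6 each), that is, -0.18 on the log2 scale with a standard error of 0.048 (limma, adjusted p = 0.0452). The ranges were 817 to 950.4 and 682 to 809, without overlap, as for 0.828% of all genes in this direction. Over 32 other fits its adjusted p-value ran from 0.019 to 0.202, and it was under the threshold in 13 of them.

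Among planar polarity genes, which steer cells by a Frizzled branch without beta-catenin, 0 of 14 passed. *Prickle1* had a log2 fold change of -0.13 (adjusted p = 0.816), and *Celsr2*, a large cadherin, had -0.16 (adjusted p = 0.816). *Celsr2* and *Prickle2* had the highest levels per kilobase, with 599.5 and 495. Among known target genes of the pathway, 0 of 16 passed, and 0 had an unadjusted p-value under 0.05. *Tnfrsf19* had a log2 fold change of 0.09 (adjusted p = 0.818), and *Notum*, an enzyme that removes the lipid of Wnt proteins, had -0.20 (adjusted p = 0.854). Per kilobase, *Tnfrsf19* (288) and the cyclin gene *Ccnd1* (97.0) were highest.

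Markers of other tissues and cell types were read beside these values. All 10 markers of excitatory neurons were in the table, with *Camk2a* as the most abundant. Their sum was 107400 ± 3818 normalized counts in control and 108700 ± 6597 in *R. flavefaciens* (SD, n = 6 each), while their median log2 fold change between these groups was -0.05, with 2 of 10 above 0 and 3 of 10 at an unadjusted p-value under 0.05, where 19.6% of all genes were. Of 6 thalamic markers, 4 were in the table (*Rora* the most abundant) and *Gbx2* and *Lhx9* were not. The sum of the 4 was 1347 ± 123 in control and 1313 ± 153 in *R. flavefaciens* (SD, n = 6 each), with a median log2 fold change of 0.11 and 1 of the 4 at an unadjusted p-value under 0.05. With limma, 0 markers of the 9 lists passed the threshold in any of the 5 comparisons. The 6 microglia markers (*Csf1r* the most abundant) had a median log2 fold change above 0 against control in each treated group. It was 0.18 under duloxetine, 0.20 under *R. flavefaciens* and 0.23 under both treatments, with 4, 4 and 5 of the 6 at an unadjusted p-value under 0.05, where 3.83%, 19.6% and 16.8% of all genes were. Medians of other non-neuronal lists were above 0 in the same 3 comparisons, in the same order. They were 0.05, 0.14 and 0.16 for the 8 astrocyte markers (*Slc1a2* the most abundant), 0.15, 0.11 and 0.17 for the 8 endothelial markers (*Slc2a1*), 0.10, 0.13 and 0.12 for the 8 oligodendrocyte markers and 0.14, 0.11 and 0.07 for the 7 precursor markers (*Olig1*). The summed astrocyte level, most of which is *Slc1a2*, had the other sign for *R. flavefaciens*, with 67570 ± 6659 against 69180 ± 4491 in control (SD, n = 6 each), and *Slc1a2* had means of 46080 and 49750. The 7 inhibitory neuron markers (*Gad1* the most abundant) had a sum of 10380 ± 478 normalized counts in control, 10320 ± 362 in duloxetine, 11240 ± 376 in *R. flavefaciens* and 10790 ± 672 in both treatments (SD, n = 6 each), and 3 of the 7 had an unadjusted p-value under 0.05 between *R. flavefaciens* and control, beside the 19.6% of all genes. The 8 striatal markers had a sum of 6089 in mouse 8_4 and between 1574 and 2557 in the other *R. flavefaciens* mice (*Ppp1r1b* the most abundant), and a sum of 3570.0 in mouse 11_4 and between 1615 and 2128 in the other mice with both treatments. *Znrf3* was at 264 in mouse 8_4, the highest of its group, and at 295 in mouse 11_4. The part of these cells in the *Znrf3* values was not tested.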

How the data were processed

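Libraries of poly(A) RNA, 1 for each of the 24 mPFC samples, were sequenced on an Illumina HiSeq instrument. Per the labels and methods, the authors mapped reads with TopHat2 2.1.0 and Bowtie2 2.2.6 to GRCm38.p5 and normalized gene counts with DESeq2 1.18.1. The labels also list mm9, but 14253 of 15456 genes had the same position in the table as in the GRCm38 annotation. The authors deposited the resulting normalized counts, a signal scaled by 1 factor per mouse. The counting program, its strand setting and the gene filter are not given in the sources used here. Of 370875 non-zero values, 99.997% were whole multiples of a single step per mouse (tolerance 0.0051), and division by that step returned the reads.

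Values were tested as log2(value + 1) with limma 3.58.1 (R 4.3.3, trended prior, two-sided) for the 14974 genes whose mean reached 10, with all 4 groups in 1 fit and adjustment after Benjamini and Hochberg within each comparison, at a threshold of 0.05. Lengths came from GENCODE vM21 and promoters from RefSeq. Alternatives were a pseudocount of 0.1, no filter, only the groups compared, scaling to the 75th percentile, DESeq2 1.42.0 and edgeR 4.0.16 on recovered reads, the first label number as a random block, removal of a loess trend on length (span 0.3) and leaving out each mouse. The labels give no batch. The methods state group housing, no first label number occurs in 2 groups, and whether it names a cage is not given in the sources used here. Each of the 60 within-group pairs of mice differed beyond counting noise (ratio of chi-square to its degrees of freedom 2.11 to 26.8).

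The members and lists were chosen with earlier results of these data known. Named besides the members were list genes past the threshold, the 2 per list with the smallest p-value for *R. flavefaciens* added to duloxetine, the 2 per list with the highest level per kilobase, and the 5 highest and 5 lowest correlations with *Znrf3*. *Rnf43* was named outside this rule, after its values were seen.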

Additional observations from a re-analysis of the deposited data

Results flagged for a closer look

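Of 36 sets of 6 mice (9 genes in 4 groups), 2 had a mouse set apart from the rest by Dixon's test, where chance alone gives about 1 in 20. Both were the highest value of *Lrp5*. Mouse 8_4 of the *R. flavefaciens* group had 215 normalized counts, and the nearest of its group had 186. Mouse 12_2 of the group with both treatments had 225, and the nearest had 195.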

How the results depend on the processing

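With *R. flavefaciens* added to duloxetine, the log2 fold change of *Znrf3* ran from 0.0583 to 0.0737 over the alternatives that keep all mice and from 0.0305 to 0.085 with a mouse left out of the limma fit, and none of these fits called a member. Without a mouse, it ran from -0.3493 to -0.2983 for *R. flavefaciens* against control and from 0.2794 to 0.3304 for duloxetine added to *R. flavefaciens*. With the length trend removed, *Znrf3* had -0.2327 for *R. flavefaciens* against control, and *Lrp5* and *Lrp6* went to -0.0607 and -0.0733 for duloxetine added to *R. flavefaciens*, opposite to the reported sign. *Lrp5* with *R. flavefaciens* added to duloxetine turned to 0.0102 with the length trend removed and to 0.0045 with scaling to the 75th percentile. Leaving out a mouse turned the sign of small differences, and the ranges were, with *R. flavefaciens* added to duloxetine, -0.0421 to 0.0167 for *Axin2*, -0.0526 to 0.024 for *Lrp5* and -0.0775 to 0.1557 for *Tcf7l2*, with duloxetine against control, -0.0101 to 0.0402 for *Apc* and -0.0166 to 0.0173 for *Gsk3b*, and with duloxetine added to *R. flavefaciens*, -0.0342 (without mouse 9_3) to 0.081 for *Lrp6*. They were -0.035 to 0.0076 for *Znrf3* and -0.0053 to 0.062 for *Lrp5* with both treatments against control, and -0.0562 to 0.0176 for *Axin2* and -0.0445 to 0.019 for *Lrp5* with *R. flavefaciens* against control. The value of *Znrf3* with both treatments against control was between -0.0189 and 0.0156 over the alternatives that keep all mice.

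Counts of called genes depended on the fit. DESeq2 called 1 gene with *R. flavefaciens* added to duloxetine, 1 for duloxetine against control, 610 for duloxetine added to *R. flavefaciens*, 497 for *R. flavefaciens* against control and 217 for both treatments against control. The first label number as a random block, which pairs no mice across groups, gave 533, 221 and 59 for the last 3. Fits of only the groups compared gave 0, 0 and 196, and 0 members in the first 2. The log2 fold change of *Znrf3* for duloxetine added to *R. flavefaciens* was 0.296 there, as in the reported fit, and is given as a description. The length trend removed gave 1 gene for *R. flavefaciens* and 71 for both treatments, and scaling to the 75th percentile gave 24 for both treatments. Either of these 2 settings left 0 members called for *R. flavefaciens* against control. For duloxetine added to *R. flavefaciens*, higher and lower calls numbered 160 and 174 in the reported fit, 203 and 105 with that scaling and 129 and 285 with the length trend removed. Leaving out a mouse gave 0 to 2 genes with *R. flavefaciens* added to duloxetine, 47 (without 11_3) to 577 (without 8_4) for duloxetine added to *R. flavefaciens*, with 155, 158, 178 and 190 without 9_1, 12_2, 9_3 and 12_3, 0 (without 9_3, 1_1, 2_2 or 2_3) to 616 (without 9_2) for *R. flavefaciens*, with 239 and 427 without 9_1 and 8_3 and 2 without 3_1, 3_3, 7_2 or 8_4, and 5 (without 10_2, 2_1 or 3_1) to 154 (without 12_4) for both treatments, with 123 and 43 without 9_3 and 12_3. Members called for *R. flavefaciens* against control ran from 0 to 1, with 0 without mouse 7_2, mouse 9_3 or any control mouse. The cause of these changes was not tested. With the length trend removed, *Lrp5*, *Lrp6* and *Apc* also turned from below 0 to 0.1323, 0.0158 and 0.0239 for *R. flavefaciens* against control. Of the recomputed log2 fold changes of the members, 349 under the alternatives that keep all mice and 1063 with a mouse left out were unchanged in this sense. They kept their direction and side of the threshold or, untested, stayed within the spread between mice. With a mouse left out, 17 turned sign. Leaving out a mouse of a group outside the comparison cannot move the log2 fold change, only its spread. Many of the 1063 were therefore fixed in direction beforehand, and the count is no measure of stability. The correlations and coefficients of variation without mouse 9_3 were chosen after seeing the data. No paired analysis was possible because the groups share no mouse numbers.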
